A study of Homo sapiens with 16 samples.

Results

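The comparison described here is the second interval after loss of the chromatin remodeller SMARCA5: transcription 6 h after the degrader was added, set against 2 h. Its libraries were taken by treatment time, and it rests on 7 of 14 tagged libraries with counts, 4 at 6 h and 3 at 2 h, out of 16 samples in the series. All cells were Kasumi-1, a line from a human acute myeloid leukaemia with the RUNX1-RUNX1T1 fusion gene. In the cells compared, SMARCA5 was expressed from both endogenous alleles as a fusion to a degradation tag (genotype SMARCA5-FKBP12F36V), and the untreated 0 h cells carried the same tag. The 2 h, 6 h and 24 h groups received 500 nM dTAG-47, a molecule that brings the tagged protein to a ubiquitin ligase. Samples of parental Kasumi-1 cells without the tag were not used here. No treated group without the tag was among the groups compared, so an effect of dTAG-47 itself cannot be told apart from an effect of SMARCA5 loss. The labels do not say whether the tagged cells came from 1 clone.

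SMARCA5 (SNF2H) is the ATPase of the ISWI remodellers, which slide nucleosomes into evenly spaced arrays and assist factors such as CTCF at their sites. PRO-seq labels the RNA of engaged RNA polymerases in isolated nuclei with biotin, so its reads count polymerases along a gene at the time of harvest and not stored mRNA. Genes respond to a lost factor in waves: direct targets move within the first hours, and later changes include those that follow from the first ones. Polymerases also need time to travel, so along a long gene the body signal trails behind events at the start. Sterol synthesis genes are a well known feedback system, driven by SREBP factors when membrane sterol falls and turned down again when it is restored.

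The libraries carried 3 codes in their column names, called run 1, run 2 and run 3 here; what the code marks is not given in the sources used here. Run 2 held 2 libraries (A and B) at each of 0, 2, 6 and 24 h. Run 1 held 2 libraries at 0 h and 1 at 2 h, and run 3 held 1 library at 0 h and 2 at 6 h. Between 11182894 and 34209362 reads fell in gene bodies, depending on the library, and between 1667950 and 7171601 near promoters. The 2 untreated libraries of run 1 differed from each other more than other pairs did, with a chi-square of 28.6 per gene, where 1 would be counting noise alone. The 6 h pair of run 3 followed at 17.99, and the pairs of run 2 lay between 1.53 and 5.33. The labels call the samples biological replicates without naming separate cultures, so p-values measure the spread between libraries. Of 12 markers of the cell line, 8 were listed (CD34, KIT, CD33, MPO, RUNX1, SPI1, CEBPA and AZU1), and RUNX1T1, ELANE, PRTN3 and CD38 were not among the genes analysed here. The 8 had a summed level of 6810 to 7318 CPM (counts scaled to the normalized size of the library, not corrected for run) at 2 h and 6811 to 7713 at 6 h. Among the markers of other blood cells, no T cell, B cell, megakaryocyte or monocyte gene was among the genes analysed, and of the erythroid genes only KLF1 was, at 13.9 to 17.3 CPM at 2 h and 11.5 to 17.1 at 6 h.

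Between 2 h and 6 h, gene-body polymerase fell at 2 genes of sterol synthesis, 3 ribosomal protein genes and the amino acid carrier SLC7A5 among others, and it rose mostly at long genes, among them PTPRC and FLT3 of the cell surface. Of 10286 genes tested across all 14 libraries with run as a term, 161 changed (1.57%). There were 103 rises (1% of genes) and 58 falls (0.564%). The changes were modest: the median size among the 161 was 0.43 on the log2 scale, 40 passed 1.5-fold and 4 passed 2-fold, all beside a median of 0.13 over all genes. Significance was set at an adjusted p of 0.05 (edgeR quasi-likelihood test, Benjamini-Hochberg over all genes), and 1782 genes had an unadjusted p under 0.05.

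The number of calls leaned on single libraries. It was 0 without 6 h library B of run 2 (1109 genes at an unadjusted p under 0.05) and 6 without 6 h library A of run 2, so that no gene named below kept its call in all 14 omissions. It was 20 without 2 h library B of run 2, 92 without 2 h library A of run 2, and 38 without 6 h library B of run 3. It was 61 without the untreated library of run 3, 93 and 65 without the untreated libraries A and B of run 2, and 62 without either 24 h library. Each of the 161 genes kept its sign whichever library was left out. They were called from these same libraries, so the kept sign is no separate support. That also holds for the separation of 6 h from 2 h libraries given for single genes below. Over all 7 libraries it was complete for 60 of the 103 rises (58.3%) and 36 of the 58 falls (62.1%). Of all 10286 genes, 6.76% had every 6 h library above every 2 h one, and 6.72% below. Within run 2 all 161 calls were separated, beside 2923 genes higher and 2953 lower among all 10286.

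Run 2 alone, where 2 h and 6 h stood side by side, gave more calls, with smaller errors. The median SE was 0.080 in run 2 alone and 0.115 in the fit of all runs. Of the genes called with all runs, 73 of the 103 rises and 41 of the 58 falls were larger in runs 1 and 3. The 6 h pair of run 2 differed by a chi-square of only 1.53 per gene, and the labels do not name separate cultures. In the fit of the 8 libraries of run 2, 1729 of 10285 genes changed (16.8%), with 902 rises (8.77%) and 827 falls (8.04%). With only its 2 h and 6 h libraries in the fit, 1339 of 10278 did (13%), 650 up (6.32%) and 689 down (6.7%). Runs 1 and 3 hold no time point in common other than 0 h, so their 6 h and 2 h levels can be set against each other only through the untreated libraries. In that fit, which shares no library with run 2 and rests on a single 2 h library, 43 genes changed (0.418%), 20 up (0.194%) and 23 down (0.224%), and 37 of the 43 had the same sign in run 2.

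Across genes, the change in run 2 and that in runs 1 and 3 had the same sign for 6333 of 10285 genes (61.6%), with a Spearman correlation of 0.29. Among the genes that changed in run 2, 1251 of 1729 (72.4%) had the same sign in the other runs, 664 of the 902 rises and 587 of the 827 falls. Genes are not independent replicates, so these shares carry no p. The size of the change was tested between the 2 sets of libraries as well: 640 genes (6.22%) differed in it, 338 with the higher value in run 2 (3.29%) and 302 with the lower (2.94%), among them 7 of the 103 rises and 3 of the 58 falls. The 103 rises had a median log2 change of 0.37 in run 2 and 0.47 in runs 1 and 3, and the 58 falls had medians of -0.52 and -0.58.

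**Figure D1:**
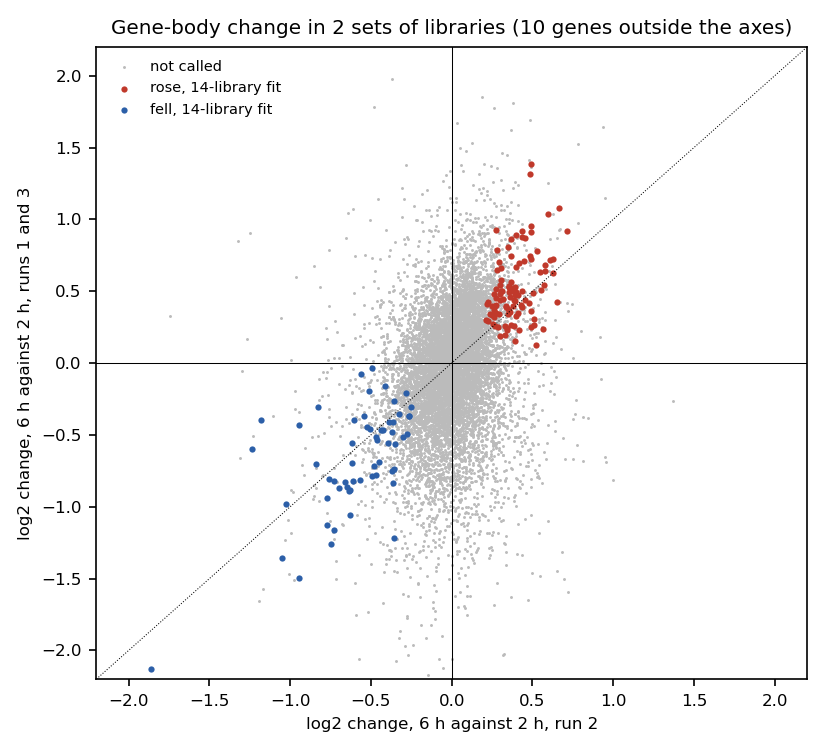
Gene-body log2 change from 2 h to 6 h in run 2 (x axis) against the same change in runs 1 and 3 (y axis), 1 point per gene, with the 103 rises and 58 falls of the 14-library fit in colour. The coloured points were called in a fit that holds both sets of libraries, and all have the same sign on both axes. The 10 genes beyond 2.2 on either axis are not drawn.

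Of the 35 gene lists examined, that of sterol synthesis and uptake had the lowest median. All 24 measured genes of the list were lower at 6 h than at 2 h, with a median log2 change of -0.82 beside -0.01 over all genes tested. Of all 10286 genes, 5016 were higher and 5270 lower in the 14-library fit, the background for such counts in the lists below. The median was -0.73 in run 2 and -0.84 in runs 1 and 3. In run 2 alone 20 of the 24 fell and none rose, where 8.04% of all genes fell. With all 14 libraries 2 of them passed the test, NSDHL and CYP51A1.

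Most of these genes that have a RefSeq promoter window share a simple feature that the counts did not use. CCAAT, the box bound by NF-Y (searched on both strands, so also as ATTGG), lay in a promoter window of 15 of the 17 list genes with a RefSeq window, against 43.9% of the 7395 genes tested that have one and 34.6% of all 35116 windows. CYP51A1, which passed the test over 14 libraries, and PMVK had a window without the box. A window runs from 250 bases before to 50 bases after a start in RefSeq for GRCh38.p14. A gene counts when any of its windows holds the letters. The sterol response element, searched as TCACNCCAC on both strands, lay in the window of 1 list gene, SREBF2, and in 1.13% of all windows. No match of these exact letters in the other genes says nothing of SREBP binding there. Stretches of 3 genes upstream of the start are shown because they carry these matches, with every match in capitals. They come from SREBF2 (chr22:41832957-41833018, plus strand), which encodes the SREBP2 factor and holds both motifs, NSDHL (chrX:152830820-152830998, plus strand) and MSMO1 (chr4:165327469-165327654, plus strand).
SREBF2: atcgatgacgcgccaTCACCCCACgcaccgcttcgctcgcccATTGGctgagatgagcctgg
NSDHL: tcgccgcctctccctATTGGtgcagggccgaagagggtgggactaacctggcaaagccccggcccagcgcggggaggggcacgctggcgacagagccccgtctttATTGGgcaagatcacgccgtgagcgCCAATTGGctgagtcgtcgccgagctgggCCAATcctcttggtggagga
MSMO1: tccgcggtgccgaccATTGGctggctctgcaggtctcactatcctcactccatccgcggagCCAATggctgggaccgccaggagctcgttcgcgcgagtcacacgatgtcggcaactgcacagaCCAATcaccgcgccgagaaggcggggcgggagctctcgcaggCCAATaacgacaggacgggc
In NSDHL, 2 of the 5 matches overlap within one palindrome. A match is a description of the letters and not a site or a cause.

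NSDHL, a sterol dehydrogenase that removes a methyl group on the way from lanosterol to cholesterol (hg19 chrX:151999511-152037907), stood at 54.7 and 51.7 CPM in the 2 h libraries of run 2 and at 33.3 and 30.02 in its 6 h libraries. Run 1 went from 29.6 and 27.4 CPM untreated to 94.6 at 2 h, and run 3 from 34.6 untreated to 44.1 and 52.8 at 6 h. The groups did not overlap within run 2, while 1 of the 6 h libraries of run 3 lay within the range of the 2 h libraries. The fitted log2 change from 2 h to 6 h was -0.89 (SE 0.20, adjusted p = 0.044). CYP51A1, the lanosterol demethylase (hg19 chr7:91741463-91764059), stood at 59.95 and 56.2 CPM at 2 h in run 2 and at 32.5 and 32.2 at 6 h. Its level was 104 CPM at 2 h in run 1 and 68.4 and 71.2 at 6 h in run 3, against untreated levels of 28.7 to 33.5 in both runs. The 6 h libraries of run 3 thus lay above the 2 h libraries of run 2 but below that of run 1. The fitted log2 change was -0.81 (SE 0.19, adjusted p = 0.048).

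Of the other enzymes none passed the test over all 14 libraries, and their log2 changes ranged widely. MVD, which makes isopentenyl pyrophosphate from mevalonate pyrophosphate, had the largest log2 change of the list, -1.34 (SE 0.44, adjusted p = 0.15). MVK, mevalonate kinase, followed at -1.30 (SE 0.37, adjusted p = 0.10), and HMGCS1, which makes HMG-CoA, at -1.16 (SE 0.35, adjusted p = 0.125). HMGCS1 read 128 and 116 CPM at 2 h in run 2 against 50.1 and 48.0 at 6 h, while run 1 reached 378 at 2 h and run 3 reached 178 and 201 at 6 h. In each of these genes the 2 h level in run 1 and the 6 h levels in run 3 lay well above those of run 2 at the same time.

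The fitted values of INSIG1 and SREBF2, regulators of the pathway, were lower as well, but neither passed the test. INSIG1, the membrane anchor that holds the SREBP complex back, had a log2 change of -1.06 (adjusted p = 0.073). SREBF2 had -0.22, with opposite signs in run 2 (-0.32) and in runs 1 and 3 (0.05). The smallest log2 change of the list was that of an enzyme, PMVK (phosphomevalonate kinase), at -0.06.

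Along the time course, the 24 genes had a geometric mean of 42.7 and 42.9 CPM untreated in run 2, 69.6 and 69.8 at 2 h, 44.2 and 42.8 at 6 h, and 37.5 and 35.7 at 24 h. In run 1 it was 36.9 and 35.5 untreated and 129 at 2 h, and in run 3 it was 44.2 untreated and 82.3 and 85.99 at 6 h. Run 2 was thus back at its untreated level by 6 h, and run 3 was not. The medians of the fitted log2 changes against 0 h were 1.24 at 2 h, 0.49 at 6 h and 0.10 at 24 h, which share their untreated libraries with each other and their treated libraries with the comparison of 6 h with 2 h.

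**Figure D2:**
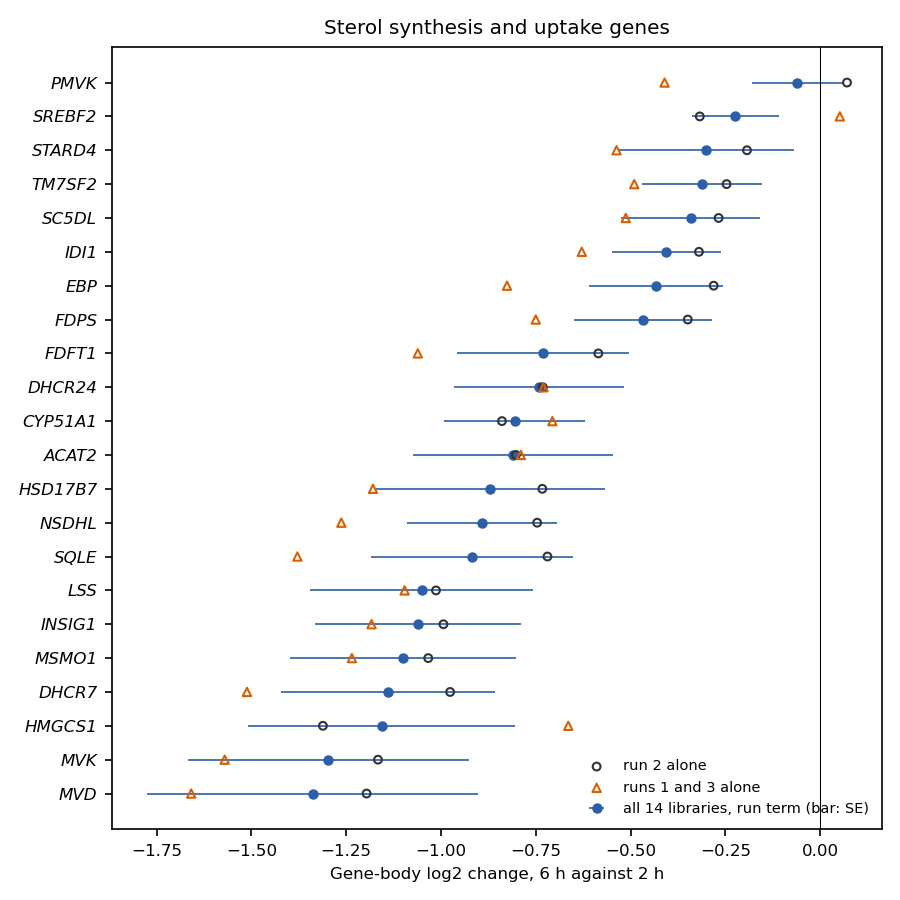
Gene-body log2 change from 2 h to 6 h for 22 of the 24 sterol synthesis and uptake genes, from all 14 libraries with its SE (filled), run 2 alone (circles) and runs 1 and 3 alone (triangles). Filled points all lie below 0, from MVD at -1.34 to PMVK at -0.06.

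Fatty acid synthesis genes, which SREBP factors also drive, were lower in 10 of 13 cases with a median log2 change of -0.19, and none passed the test over 14 libraries. In run 2, where 8.04% of all genes fell, 7 of the 13 did, among them SCD, the stearoyl-CoA desaturase (-0.98 in run 2, -0.90 in runs 1 and 3), and FASN, the fatty acid synthase (-0.92 and -0.78).

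SLC7A5, an amino acid carrier, was 1 of the 58 falls. In the list of ATF4 targets, the genes that amino acid shortage turns on, 20 of 24 were lower with a median log2 change of -0.28, and 1 fell in the 14-library fit. The list's median was -0.06 without the run term. SLC7A5 is the LAT1 carrier of large neutral amino acids (hg19 chr16:87863629-87903100). In run 2 SLC7A5 read 89.8 and 101 CPM at 2 h and 41.1 and 39.7 at 6 h. Run 1 went from 74.9 and 96.6 CPM untreated to 162 at 2 h, and run 3 from 123 untreated to 162 and 149 at 6 h. The run 2 groups were far apart, whereas the 6 h libraries of run 3 equalled or nearly equalled the 2 h library of run 1, and their lower fitted change came from the higher untreated level in run 3. The fitted log2 change was -1.06 (SE 0.24, adjusted p = 0.048).

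The 2 sets of libraries parted for other members of this list. In run 2, 12 of the 24 ATF4 targets fell, beside 8.04% of all genes. The list's median was -0.27 there and -0.12 in runs 1 and 3, where 9 of the 24 were higher. ASNS, asparagine synthetase, had -0.76 in run 2 and -0.32 in the other runs, and CHAC1, which degrades glutathione, had -1.23 and -0.51. CBS, of the cysteine pathway, had -0.97 in run 2 but 0.60 in the other runs, and ALDH1L2, a mitochondrial folate enzyme, had -1.25 and 0.91. The run difference passed its test for 4 members of the list, beside 6.22% of all genes. Of the 22 aminoacyl-tRNA synthetase genes, which charge tRNAs with amino acids, 21 were lower with a median of -0.24. None passed over 14 libraries, and 14 fell in run 2, beside 8.04% of all genes. In runs 1 and 3 the median was -0.16 and 7 of the 22 were higher, among them YARS, the tyrosine enzyme, with -0.45 in run 2 and 0.31 there.

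Few genes of the ribosome passed the test over 14 libraries. Of 73 cytosolic ribosomal protein genes, 69 were lower, with a median log2 change of -0.18 (run 2 -0.22, runs 1 and 3 -0.06, where 30 of the 73 were higher), and 3 passed the test: RPL10A, RPL23 and RPL10. RPL10A, a protein of the large subunit (hg19 chr6:35436178-35438558), read 57.6 and 62.1 CPM at 2 h and 45.6 and 39.5 at 6 h in run 2. It was 59.6 CPM at 2 h in run 1 and 45.4 and 43.0 at 6 h in run 3. All 4 libraries at 6 h lay below all 3 at 2 h, and the fitted log2 change was -0.57 (SE 0.11, adjusted p = 0.030). RPL23 and RPL10 had changes of -0.43 (adjusted p = 0.038) and -0.35 (adjusted p = 0.044). RPL10A, RPL23 and RPL10 each span less than 5 kb, and the 1154 genes of that length had a median of -0.12. That median was -0.06 in run 2 and -0.24 in runs 1 and 3, and the part of length in the list's change was not tested. Ribosomal protein genes have many processed copies in the genome, and how reads matching several copies were assigned is not given in the sources used here.

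Ribosome biogenesis genes, which process and assemble ribosomal RNA in the nucleolus, were lower in 45 of 48 cases with a median of -0.21, and 26 of them fell in run 2, where 8.04% of all genes did. In runs 1 and 3 the median was -0.13 and 15 of the 48 were higher. URB1, a nucleolar scaffold of the large subunit (hg19 chr21:33683330-33765312), was the single call over 14 libraries. It read 216 and 230 CPM at 2 h and 176 and 173 at 6 h in run 2, 250 at 2 h in run 1, and 204 and 193 at 6 h in run 3. Its 4 values at 6 h were below its 3 values at 2 h, with a log2 change of -0.41 (SE 0.08, adjusted p = 0.024). RRP9 and BOP1, of the small and the large subunit pathway, had -0.58 and -0.45 in run 2 and -0.51 and -0.43 in the other runs. NOP58, a core protein of small nucleolar particles, had -0.21 in run 2 and 0.30 in the other runs, and DDX21, a nucleolar helicase, had -0.31 and 0.13. These 4 were chosen after their values were seen.

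The E box CACGTG, the core letters bound by MYC, MAX and USF factors, lay in a window of 16 of the 39 ribosome biogenesis genes with one (41.0%) and of 13 of the 40 genes among the 58 falls (32.5%). It lay in 13.4% of all genes tested with a window, in 7.26% of all windows, and in 5 of the 84 rises with one (5.95%). It reads the same on both strands. It is shown for 2 named falls, with the letters in capitals: SLC7A5 (GRCh38.p14 chr16:87869617-87869652, minus strand) and DPH2 (chr1:43969977-43970009, plus strand), a gene of the diphthamide pathway that modifies elongation factor eEF2.
SLC7A5: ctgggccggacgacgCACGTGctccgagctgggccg
DPH2: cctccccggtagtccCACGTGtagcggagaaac
The letters say nothing of which factor, if any, was bound in these cells.

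Heat shock chaperone genes were lower in 21 of 23 cases, with a median of -0.27 that was -0.19 in run 2 and -0.67 in runs 1 and 3. AHSA1, the co-chaperone that stimulates the HSP90 ATPase, was the 1 call. It read 51.1 and 46.9 CPM at 2 h and 37.5 and 38.5 at 6 h in run 2, 49.1 at 2 h in run 1, and 43.9 and 42.7 at 6 h in run 3. The 6 h libraries were all below the 2 h ones, with a log2 change of -0.59 (SE 0.13, adjusted p = 0.039). The untreated libraries of run 1 (33.9 and 31.3 CPM) and run 3 (65.8 CPM) lay on either side of those of run 2 (43.0 and 42.4 CPM), and the change measured through them was larger, -1.22 against -0.36.

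Respiratory chain genes were lower in 55 of 73 cases with a median of -0.09, and COX6B1, a subunit of cytochrome oxidase, was the 1 call at -0.55 (adjusted p = 0.027). The 2 h libraries of COX6B1 read 41.9 to 44.5 CPM, the 6 h libraries of run 2 31.9 and 30.8, and those of run 3 45.4 and 48.01, above all 2 h libraries. Endoplasmic reticulum stress genes had a median of -0.13, glycolysis genes -0.11 and mitochondrial ribosomal proteins -0.07, with no call in any of them. The proteasome list, whose median was -0.01, and the spliceosome list, also at -0.01, sat at the level of all genes.

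**Figure D3:**
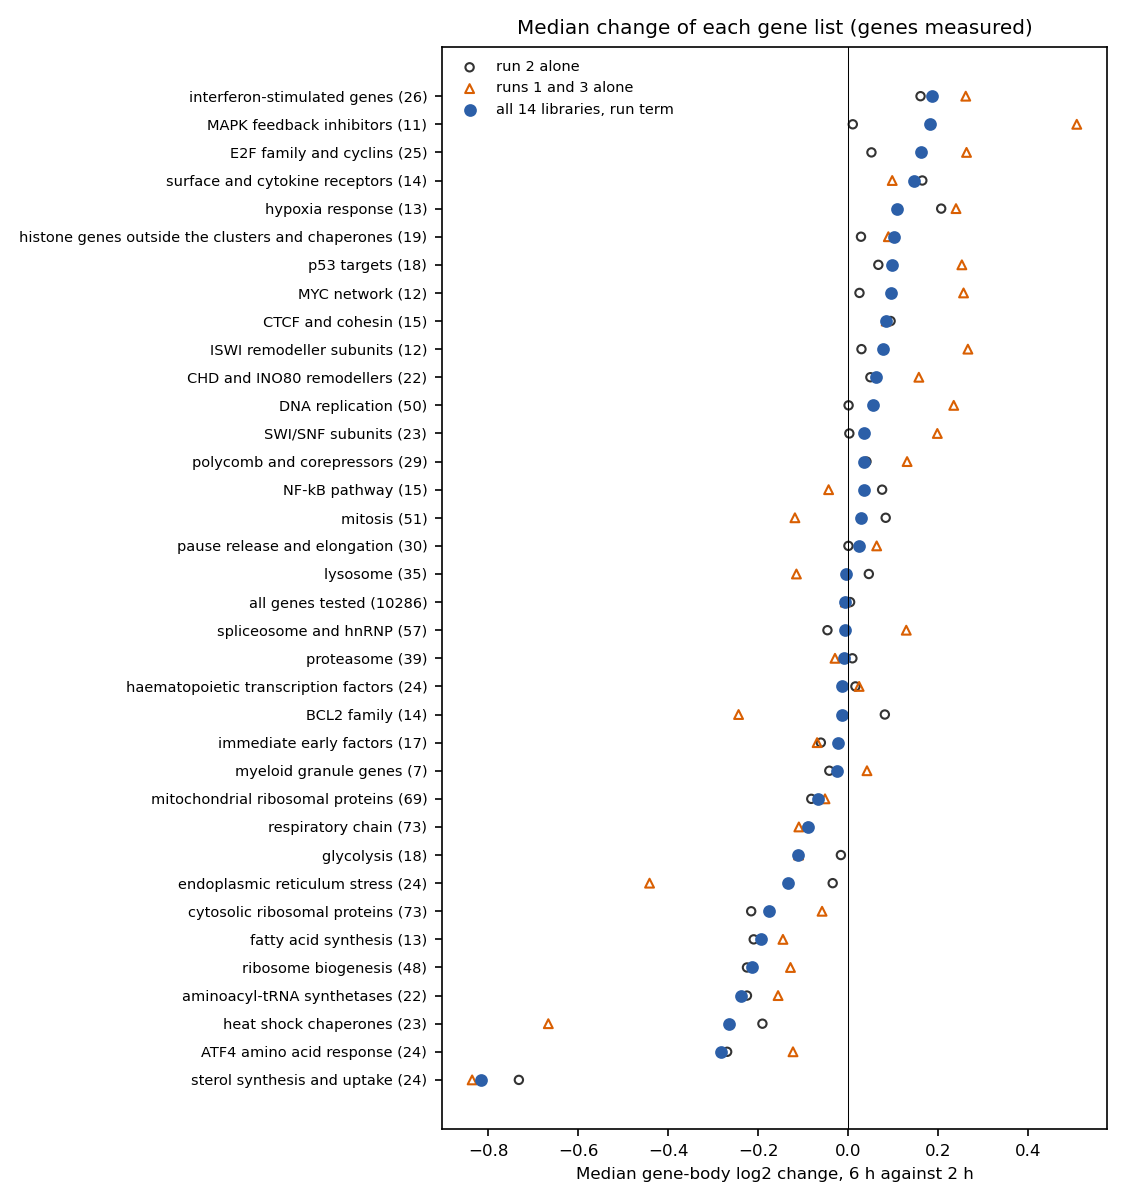
Median gene-body log2 change from 2 h to 6 h of 35 gene lists and of all genes tested, from all 14 libraries (filled), run 2 alone (circles) and runs 1 and 3 alone (triangles), with the number of genes measured in brackets. Sterol genes stand apart at -0.82, followed by a cluster of lists between -0.28 and -0.18, while the highest list median is 0.19.

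Among the rises, few belonged to a list. The surface and cytokine receptor list was higher in 12 of 14 cases with a median of 0.15, and 2 genes rose. PTPRC, which encodes the leukocyte phosphatase CD45 (hg19 chr1:198608137-198726545), read 182 and 184 CPM at 2 h and 265 and 252 at 6 h in run 2. Run 1 had 247 and 219 CPM untreated and 170 at 2 h, and run 3 had 171 untreated and 169 and 186 at 6 h. The groups were apart in run 2, but 1 of the 6 h libraries of run 3 lay below the 2 h library of run 1. The fitted log2 change was 0.50 (SE 0.09, adjusted p = 0.018). FLT3, the receptor kinase of early progenitors that is often mutated in this leukaemia (hg19 chr13:28577411-28674729), read 44.1 and 40.4 CPM at 2 h and 59.9 and 57.6 at 6 h in run 2. Run 1 went from 101 and 109 CPM to 51.6 at 2 h, and run 3 from 66.4 to 79.9 and 85.15 at 6 h. All 6 h libraries were above all 2 h libraries, with a log2 change of 0.70 (SE 0.16, adjusted p = 0.044).

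ISWI subunits and partners, the machine to which SMARCA5 belongs, were higher in 11 of 12 cases with a median of 0.08, and BAZ2B rose. BAZ2B is a bromodomain protein that pairs with ISWI ATPases (hg19 chr2:160175490-160473059). It read 479 and 488 CPM at 2 h and 703 and 705 at 6 h in run 2, with 439 at 2 h in run 1 and 410 and 468 at 6 h in run 3. Here the groups separated in run 2 and overlapped across runs. The untreated level was 386 CPM in run 3 and 680 and 537 in run 1. The log2 change was 0.57 (SE 0.09, adjusted p = 0.013). SMARCA5 itself read 105 and 90.55 CPM at 2 h and 99.04 and 107 at 6 h in run 2, 88.55 at 2 h in run 1, and 84.6 and 96.7 at 6 h in run 3. Its values overlapped between the times, with a log2 change of 0.17 (SE 0.13, adjusted p = 0.53). The tag acts on the protein, so transcription of the gene does not check the degradation.

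AFF1, a scaffold of the super elongation complex and a frequent fusion partner in leukaemia, rose by 0.43 (SE 0.06, adjusted p = 0.0068). It kept its call in 13 of 14 omissions of a library. Without correction for run, AFF1 averaged 216 CPM (SD 35.9) at 2 h and 259 (SD 58.3) at 6 h. Over the alternatives its log2 change ranged from 0.26 to 0.53. NDRG1, a stress and hypoxia induced gene, rose by 0.60 (SE 0.10, adjusted p = 0.018). It read 32.7 and 38.6 CPM at 2 h and 51.7 and 51.0 at 6 h in run 2, 38.5 at 2 h in run 1, and 63.8 and 56.7 at 6 h in run 3, so that no 6 h library overlapped a 2 h one. The hypoxia list as a whole had 9 of 13 genes higher and a median of 0.11. Interferon-stimulated genes were higher in 19 of 26 cases with a median of 0.19, but the 1 call there was a fall, ISG20, an RNA exonuclease, at -0.60 (SE 0.11, adjusted p = 0.027). MAPK feedback inhibitors had a median of 0.18 that was 0.01 in run 2 and 0.51 in runs 1 and 3, with no call. Of the 11 measured, 4 differed between runs, beside 6.22% of all genes.

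**Figure D4:**
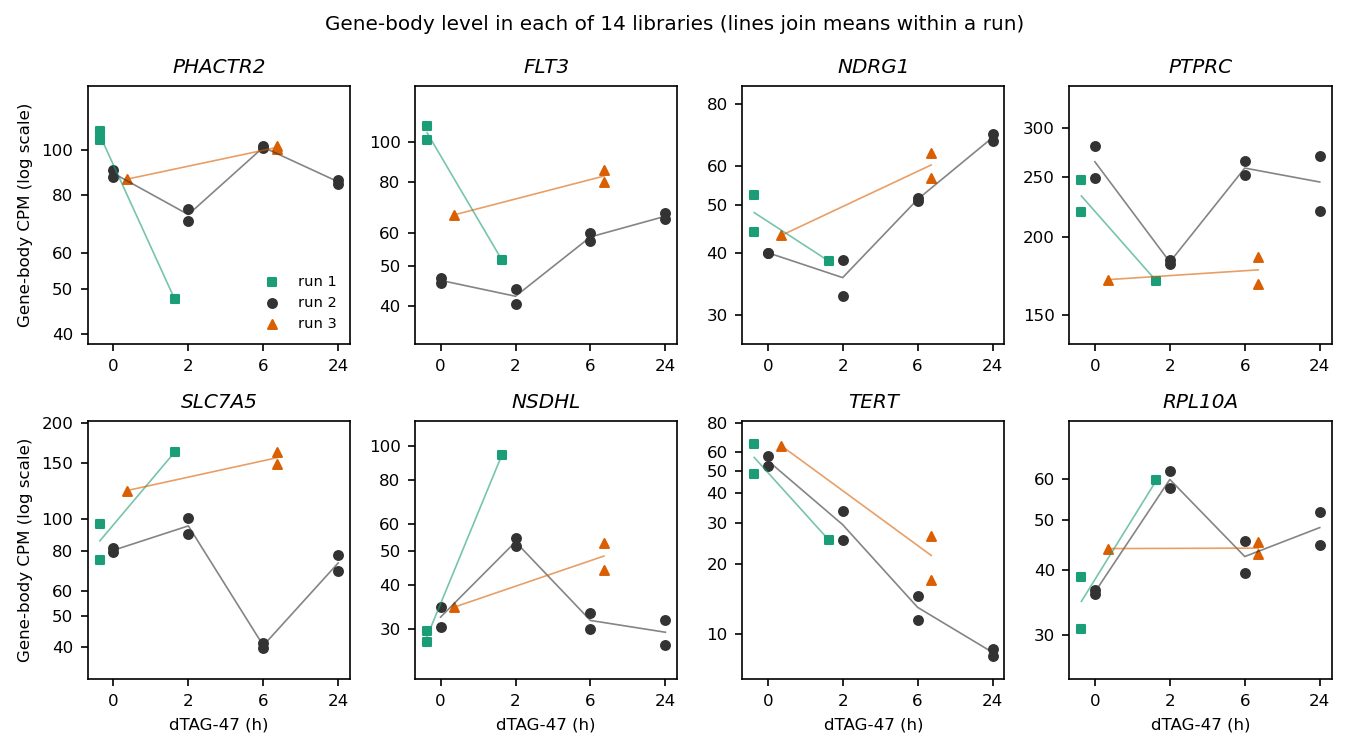
Gene-body CPM on a log scale in each of the 14 libraries for 4 genes that rose (top) and 4 that fell (bottom) from 2 h to 6 h, by hours of dTAG-47, with run 1 as squares, run 2 as circles, run 3 as triangles, and lines through the means within a run. In run 2 the 6 h points are clear of the 2 h points in every panel, as for all 103 rises and all 58 falls. Of all 10286 genes tested, 2923 had the 6 h values of run 2 above its 2 h values without overlap, and 2953 below. In SLC7A5, NSDHL, PTPRC and TERT the 6 h points of run 3 overlap the 2 h points of the other runs.

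The rises of greatest size were at genes of varied roles. ABHD4, a lipase that acts on N-acyl phospholipids (hg19 chr14:23067147-23081265), read 5.90 and 3.82 CPM at 2 h and 8.07 and 7.78 at 6 h in run 2. Run 1 went from 22.7 and 24.3 CPM to 9.43, and run 3 from 28.8 to 21.2 and 23.1. The run 1 library at 2 h lay above both 6 h libraries of run 2, and the fitted log2 change was 0.79 (SE 0.16, adjusted p = 0.037). RAB27B, a small GTPase that docks secretory vesicles (hg19 chr18:52495708-52562747), read 21.7 and 23.1 CPM at 2 h and 36.4 and 34.5 at 6 h in run 2, with 25.3 at 2 h in run 1 and 42.0 and 39.6 at 6 h in run 3. Its 6 h values were all above its 2 h values, with a log2 change of 0.78 (SE 0.13, adjusted p = 0.017).

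PHACTR2, a regulator of actin and protein phosphatase (hg19 chr6:143929317-144152322), read 74.7 and 70.3 CPM at 2 h and 101 and 102 at 6 h in run 2. Run 1 went from 110 and 105 CPM to 47.5 at 2 h, and run 3 from 86.5 to 101 and 102 at 6 h. The 4 values at 6 h lay close together and above all 2 h values, while the runs differed at 2 h, with a log2 change of 0.71 (SE 0.15, adjusted p = 0.038). DNAJC1, a J-domain protein of the endoplasmic reticulum membrane, rose by 0.70 (SE 0.11, adjusted p = 0.013), and RALGPS2, an exchange factor for Ral GTPases, by 0.65 (SE 0.11, adjusted p = 0.017). SH2D3C, an adaptor of cell migration, PRAM1, an adaptor of myeloid cells, SLC45A3, a membrane carrier, C19orf38 and FAM212B rose by 0.60 to 0.64. Those 5 genes had log2 differences of 0.85 to 1.66 at 24 h against 0 h.

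Leaving out genes whose normalized count averaged under 100, the falls of greatest size included transcripts at a low level. LOC254896, a noncoding transcript, read 4.70 and 6.18 CPM at 2 h and 2.93 and 2.37 at 6 h in run 2, 4.42 at 2 h in run 1, and 2.11 and 1.93 at 6 h in run 3. All 6 h values were below all 2 h values, with a log2 change of -1.18 (SE 0.24, adjusted p = 0.037). PYY, the gut hormone peptide YY (hg19 chr17:42030107-42081837), read 21.7 and 25.4 CPM at 2 h and 12.1 and 12.3 at 6 h in run 2, 25.6 at 2 h in run 1, and 14.6 and 16.4 at 6 h in run 3. It too had no overlap, with a log2 change of -1.10 (SE 0.24, adjusted p = 0.044).

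TERT, the catalytic subunit of telomerase (hg19 chr5:1253287-1295162), read 25.3 and 33.5 CPM at 2 h and 14.5 and 11.6 at 6 h in run 2, 25.2 at 2 h in run 1, and 26.4 and 17.1 at 6 h in run 3. One 6 h library of run 3 lay within the 2 h range, and the log2 change was -0.94 (SE 0.21, adjusted p = 0.043). ACTL8, an actin-like gene, and RASL10B, a Ras-like GTPase, fell by 0.81 (adjusted p = 0.0094) and by 0.79 (adjusted p = 0.017) on the log2 scale. Without correction for run, ACTL8 averaged 45.9 CPM (SD 5.84) at 2 h and 38.7 (SD 15.8) at 6 h. RASL10B averaged 19.3 CPM (SD 1.03) at 2 h and 13.9 (SD 4.38) at 6 h. Over the alternatives the log2 change of ACTL8 ranged from -0.94 to -0.24. TERT, ACTL8, RASL10B and LOC254896 had log2 changes of -2.68, -1.37, -1.77 and -3.31 at 24 h against 0 h.

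All 6 measured members of the FAM86 family were lower, from -0.84 for FAM86EP to -0.48 for FAM86HP, and 5 passed the test. FAM86A encodes a methyltransferase of elongation factor eEF2, and its relatives are near-identical copies, several of them pseudogenes. Reads can be split between such copies by the counting, so the 6 values are not independent and the copy that changed is uncertain. DPH2, which acts on the same factor, fell by 0.75 on the log2 scale (SE 0.15, adjusted p = 0.034).

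Gene length set the rises apart. The 103 rises had a median length of 163 kb against 24.8 kb for all genes tested, and 69 of them (67.0%) spanned at least 100 kb, against 12.8% of all genes. The 58 falls had a median of 18.5 kb, and 13.8% of them spanned at least 100 kb. Long genes collect more reads and so are easier to call: the rises had a median of 3237 normalized counts against 1009 over all genes. Among genes with at least 1000 normalized counts, 80% of 85 rises spanned at least 100 kb, against 24.8% of all such genes. Of the 23 falls at this level 8 did (34.8%).

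The change itself, called or not, followed length. The median log2 change was -0.12 for the 1154 genes under 5 kb, -0.11 for the 1348 genes of 5 to 10 kb and -0.06 for the 1958 genes of 10 to 20 kb. It was 0.00 for the 2931 genes of 20 to 50 kb, 0.06 for the 1580 genes of 50 to 100 kb, 0.09 for the 924 genes of 100 to 200 kb and 0.14 for the 391 genes of 200 kb or more. Medians also went from -0.06 to 0.10 in run 2 and from -0.24 to 0.25 in runs 1 and 3, in order of length but for the first 2 classes of run 2, which were level. The Spearman correlation of length with the change, across genes, was 0.35 over all libraries, 0.25 in run 2 and 0.33 in runs 1 and 3.

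Against untreated cells, medians from the shortest to the longest class went from 0.27 to -0.19 at 2 h, from 0.17 to -0.05 at 6 h and from 0.28 to -0.08 at 24 h. These 3 comparisons share their untreated libraries, and the first 2 share libraries with the comparison of 6 h with 2 h. From 2 h to 6 h, promoter-proximal medians spanned less than those of gene bodies over all libraries. They were 0.00 in the shortest class and 0.05 in the longest, with extremes of -0.04 at 5 to 10 kb and 0.07 at 100 to 200 kb. Read depth and the promoter-proximal share of reads also varied between the libraries (11.3% to 17.3% at 2 h, 11.4% to 15.5% at 6 h), and their part in the relation with length was not tested. Without the run term the difference between the median of genes of at least 100 kb and that of genes under 10 kb was 0.03, where the run term gave 0.21 and runs 1 and 3 alone 0.39.

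**Figure D5:**
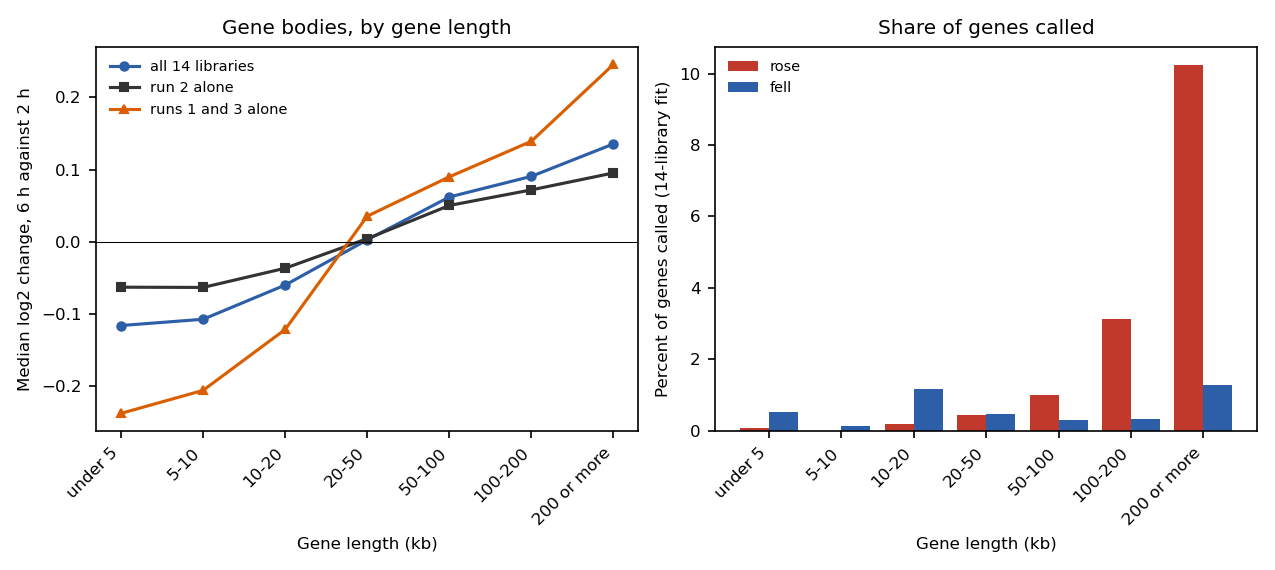
Left, median gene-body log2 change from 2 h to 6 h in 7 classes of gene length (kb) for all 14 libraries, run 2 alone and runs 1 and 3 alone; right, percent of genes in each class that rose or fell in the 14-library fit. Medians climb from -0.12 in the shortest class to 0.14 in the longest, and the share of rises reaches 10.2% in genes of 200 kb or more.

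The long genes that rose included VAV3, an exchange factor for small GTPases and the longest of those named (394 kb), at 0.48 (adjusted p = 0.048), and TSPAN7, a tetraspanin, at 0.55 (adjusted p = 0.026). In run 2, VAV3 read 1023 and 949.8 CPM at 2 h and 1266 and 1267 at 6 h. Run 1 went from 2127 and 1865 CPM to 925, and run 3 from 1174 to 957 and 1054. The 6 h libraries of run 3 overlapped the 2 h libraries, and their fitted rise rests on the larger drop from untreated cells in run 1.

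The 24 h libraries show where these genes stood later against untreated cells, and not whether the shift between 2 h and 6 h lasted. Within run 2, the comparison of 24 h with 0 h uses none of the 2 h and 6 h libraries. Of the 902 genes that rose in run 2, 619 were higher at 24 h than at 0 h (68.6%), against 50.5% of all genes, with a median log2 difference of 0.13. Of the 827 that fell, 660 were lower at 24 h (79.8%), against 49.5% of all genes, with a median of -0.19. Sterol genes, most of which fell in run 2, stood at a geometric mean of 42.7 and 42.9 CPM at 0 h and 37.5 and 35.7 at 24 h there. For the 103 rises the medians against 0 h were -0.26 at 2 h, 0.13 at 6 h and 0.21 at 24 h. For the 58 falls they were 0.10, -0.42 and -0.27, in comparisons that share libraries.

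Near promoters, where polymerase pauses after initiation, no gene passed the test between 2 h and 6 h. Of 9965 genes, 0 changed (0%) with edgeR, 720 had an unadjusted p under 0.05, and DESeq2 called 2 falls. The promoter-proximal counts were lower and their errors wider, with a median SE of 0.28 on the log2 scale against 0.11 for gene bodies. With only the 2 h and 6 h libraries of run 2 in the fit, 265 genes changed, 100 up and 165 down. The 96 gene-body rises with a promoter-proximal value had a median of 0.21 there, with 69 higher. The 55 falls had a median of -0.27, with 40 lower. Over all 9965 genes the median was 0.01, with 51.0% higher. The 2 readouts come from the same libraries, so a shared direction is no separate support. Sterol genes had a promoter-proximal median of -0.45, with 21 of 24 lower.

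SLC7A5 read 110 and 173 promoter-proximal CPM at 2 h and 56.7 and 40.8 at 6 h in run 2, and 184 at 2 h in run 1 against 218 and 228 at 6 h in run 3. The fitted log2 change was -1.52 (adjusted p = 0.57). The runs differed in level as they did along the gene body. The difference between the promoter-proximal and the gene-body change passed the test for 0 of 9965 genes (0%, limma), with 587 at an unadjusted p under 0.05 and a smallest adjusted p of 0.30. The 5 genes with the smallest p were SDHAP1, TSPAN7, C8orf37, FEM1A and VAV3. TSPAN7 had a difference of -1.90 from promoter-proximal levels under 6 CPM in every library, and SDHAP1, a pseudogene of succinate dehydrogenase, had -1.37 (adjusted p = 0.30 for both).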

How the data were processed

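PRO-seq of tagged Kasumi-1 cells was deposited as tables of read counts per RefSeq transcript on hg19, for gene bodies and for promoter-proximal regions. These deposited counts were made by the authors with Trimmomatic 0.32, Bowtie2 2.2.2, SAMtools, HOMER and DESeq or DESeq2, per the submitters' processing notes; which tool counted the reads, and how reads matching several places were assigned, is not given in the sources used here. Of 10304 transcripts the one with the highest mean count was kept per symbol, leaving 10286. The 84 columns of normalized values in the 6 tables, and the parental samples, were not used here.

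Counts were fitted with edgeR 4.0.16 in R 4.3.3 (TMM, filterByExpr, quasi-likelihood test, Benjamini-Hochberg over all genes, threshold 0.05), with time and the run code of the column names as terms over 14 libraries. An SE is the fitted log2 change divided by the root of its F. CPM values are counts scaled to library totals adjusted by the TMM factors, without correction for run. The promoter-proximal minus gene-body change was tested with limma 3.58.1 on differences of log2 CPM (prior count 2). Alternatives used DESeq2 1.42.0, limma-voom, other scalings, filters and thresholds, the fit without run, each set of runs alone and each library left out. The scripts were tested on simulated data.

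Named genes were up to 12 largest rises and 12 largest falls with a mean of 100 normalized counts or more and 1 sign in both sets of runs, up to 4 called members of each of 35 lists, SMARCA5, the 5 genes with the smallest p for the promoter-proximal minus gene-body change, and members needed to describe a list. The comparison, the genes and the lists were chosen with earlier results of these data known. Results for some genes are not reported here.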

Additional observations from a re-analysis of the deposited data

Results flagged for a closer look

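A few results stood out among the 40 named genes. ACTL8 read 118 CPM in the untreated library of run 3, apart from the other 4 untreated libraries at 61.9 to 71.2. COX6B1 read 47.1 CPM in the same library, against 22.8 to 27.8 in the others. These were 2 of 80 groups of values examined by the gap of the highest or lowest library over the range (Dixon's criterion at 95%), and chance alone marks about 1 in 20 groups. Both changes were therefore measured in runs 1 and 3 against an untreated level that was high in run 3.

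For 5 of the 40 named genes the change from 2 h to 6 h differed in size between run 2 and runs 1 and 3. The test was edgeR's test of the difference over all genes, which 640 of 10286 genes passed (6.22%). The difference (run 2 minus runs 1 and 3, log2) was -0.92 for PHACTR2, with 0.49 in run 2 and 1.39 in the other runs (adjusted p = 0.0039). It was -0.86 for FLT3, with 0.48 and 1.32 (adjusted p = 0.012), and 0.83 for AHSA1, with -0.36 and -1.22 (adjusted p = 0.017). It was -0.51 for TSPAN7, with 0.44 and 0.92 (adjusted p = 0.028), and -0.52 for VAV3, with 0.37 and 0.87 (adjusted p = 0.034). In all 5 the size was greater in runs 1 and 3, which rest on a single 2 h library. The sign was shared, as it was in each of the 161 calls, so it is no separate support.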

How the results depend on the processing

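The number of gene-body calls (161, 103 up and 58 down) moved with the model. No named gene that was called changed sign in an alternative run here, but the alternatives share libraries with the fit that called them. Of the 161, 157 kept their sign without the run term. Without the run term there were 0 calls (0 up, 0 down), with 813 genes at an unadjusted p under 0.05. Run 2 alone gave 1729 (902 and 827), its 2 h and 6 h libraries only 1339 (650 and 689), and runs 1 and 3 alone 43 (20 and 23). All runs with the 2 h and 6 h libraries only gave 104 falls. DESeq2 gave 410 (252 and 158) and limma-voom 244 (157 up). Leaving out both untreated libraries of run 1 gave 428 (289 and 139). An adjusted p under 0.01 left 7 (5 and 2), and a minimum fold of 1.5 left 40 (14 and 26). With each library left out in turn, calls ranged from 0 to 216, rises from 0 to 149 and falls from 0 to 75.

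Near promoters DESeq2 gave 2 calls, both falls. Run 2 alone gave 0 there, and its 2 h and 6 h libraries only 265 (100 up, 165 down). The difference between the runs had 93 calls at an adjusted p under 0.01 (52 and 41), 198 lower ones at a minimum fold of 1.5, and, with a library left out, 120 to 1604 calls (67 to 723 up, 53 to 881 down). It could not be fitted without the untreated library of run 3 or the 2 h library of run 1. The difference in median change between genes of at least 100 kb and under 10 kb was 0.034 without the run term, 0.39 in runs 1 and 3, and 0.14 to 0.29 with a library left out. The cause of these shifts was not tested. Over the alternatives, list medians ranged from -0.99 to -0.52 (sterol), -0.42 to -0.06 (ATF4, the latter without the run term), -0.67 to -0.15 (heat shock), -0.31 to -0.15 (aminoacyl-tRNA synthetases), -0.23 to -0.13 (ribosome biogenesis) and -0.22 to -0.06 (ribosomal proteins). Of the alternatives for single named genes, 753 kept the side of the threshold and 327 lost the call. The settings for run 2 without 0 h and 24 h libraries, with the letter as a block and without both untreated libraries of run 1 were added after the data were seen. The columns carry letters and run codes and no replicate numbers, so the labels do not pair the libraries. With the letter as a replicate block in run 2, 1746 genes were called (902 up, 844 down) beside 1729 without it, and near promoters 7, all falls. The A minus B differences of the 2 h and 6 h libraries had a correlation of 0.008 across genes, and those of other times between -0.07 and 0.13.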

Other observations

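Several signalling genes outside the lists above were among the 103 rises, and they were picked here after their values were seen. Those encoding protein kinase C isoforms were PRKCB, with a log2 change of 0.49 (adjusted p = 0.0035), PRKCH at 0.40 (adjusted p = 0.017) and PRKCA at 0.32 (adjusted p = 0.014). The phosphatase genes PTPN22 and PTPRJ rose by 0.60 and 0.55, and STIM1, the calcium sensor of the endoplasmic reticulum, by 0.56. GAB1 and GAB2, docking proteins downstream of growth factor receptors, rose by 0.54 and 0.31. All of these had a positive change in run 2 and in runs 1 and 3, but each of the 161 calls had the same sign in both. All but PTPN22 (57.9 kb) spanned more than 100 kb.

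Among the falls, also picked after their values were seen, were genes of nucleotide, polyamine and one-carbon supply. DHODH, of pyrimidine synthesis, fell by 0.51 on the log2 scale, SRM, the spermidine synthase, by 0.71, and MTHFD1L, of mitochondrial folate metabolism, by 0.44. SLC5A6, a vitamin carrier, fell by 0.50, and NLE1, a ribosome assembly factor, by 0.49. MTHFD1L had -0.56 in run 2 and -0.07 in runs 1 and 3. The fall of greatest size, GAS2L2 at -1.91 (SE 0.35), rested on a mean of 51.9 normalized counts.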
